A study of Mus musculus with 4 samples.

Results

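The genes described here carry the names TEX, SPATA, SPAG, TSSK, TSGA and ODF, families named for their expression in testis, in spermatogenesis or in the outer dense fibres of the sperm tail. They were chosen by name alone: every probe whose gene name in the files begins with 1 of these letter groups followed by a digit, with a single gene left out. This gave 62 genes with 106 probes, among 27370 features on the array, and the naming rule uses no measured value. The RNA came from cultured mouse germline stem cells, which are spermatogonial stem cells grown outside the testis, labelled as male. All 4 samples carried Roa-CreERT2, as the labels spell it, a Cre recombinase fused to a receptor part that 4-hydroxytamoxifen switches on, together with CAG-CAT-3FlagNanos2-pA, a construct that expresses Flag-tagged Nanos2 once Cre has acted. The growth protocol calls the recombinase a knock-in, and CAG is a promoter that is active in most cell types. The cells grew on mitomycin-treated feeder fibroblasts from C57Bl6 embryos, and feeder cells were removed before extraction. Of these samples, 2 took DMSO for 48 hours and served as the control, and 2 took 4-hydroxytamoxifen for 48 hours. No group took 4-hydroxytamoxifen without the construct, so the effects of Nanos2, of Cre and of the compound cannot be told apart.

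Nanos2 binds RNA and holds male germline stem cells back from differentiation. Male germ cells pass from these stem cells through meiosis to round spermatids, which then grow an acrosome, condense the nucleus and build a flagellum. The flagellum has a microtubule core, the axoneme, with a central apparatus that includes SPAG6, SPAG16 and SPAG17, and around it the outer dense fibres. Many genes of these families are best known from meiosis or from spermatids, while others, such as the spindle protein SPAG5 and the scaffold SPAG9, work in dividing or resting cells of many tissues. The names therefore join genes of unlike roles, and the results are given by role.

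The Nanos2 probe checked the labels: it gave 345.5 and 340.9 under DMSO against 930.1 and 1097 under 4-hydroxytamoxifen, a rise of 2.94-fold (log2 difference 1.56 ± 0.10, limma adjusted p = 0.000843). Whether that probe reads the construct, the cell's own gene or both was not tested. Signals here are background-subtracted intensities, each array scaled so that its 75th percentile equals the mean of the percentiles of the 4 arrays. Between 62.1% and 65.9% of spots per array were well above background. Differences are on the log2 scale, treated minus control, and are given ± the standard error from limma (2 arrays per group). A gene was called at a Benjamini-Hochberg adjusted p under 0.05 over all 17537 features, each the brightest probe of its gene. Signals of different probes are not comparable with each other, so only differences are compared between genes.

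Promoter letters are shown for 4 members that are among the strongly changed genes described below and whose windows held a searched motif close to the start. RefSeq windows of GRCm38.p6, from 250 bases before to 50 bases after the annotated start, were found for 51 members. Both strands were searched for CACGTG (an E box), TGACGTCA (a cAMP response element), GGCGGGA (an E2F-type motif) and TTTGAA (the core of the cell cycle homology region). Printed here are the 150 bases before the start, 5′ to 3′ along the gene, with matches in capitals. The windows are chr3:26637481-26637630 on the plus strand for Spata16, chr16:16829364-16829513 on the minus strand for Spag6l, chr2:156065063-156065212 on the plus strand for Spag4 and chr11:78301441-78301590 on the plus strand for Spag5.
Spata16: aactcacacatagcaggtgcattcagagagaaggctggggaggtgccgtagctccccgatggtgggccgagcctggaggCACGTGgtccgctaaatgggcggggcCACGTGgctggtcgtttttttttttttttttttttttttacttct
Spag6l: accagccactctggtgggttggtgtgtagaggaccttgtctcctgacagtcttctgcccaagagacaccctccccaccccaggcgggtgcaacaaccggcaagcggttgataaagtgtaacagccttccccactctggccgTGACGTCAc
Spag4: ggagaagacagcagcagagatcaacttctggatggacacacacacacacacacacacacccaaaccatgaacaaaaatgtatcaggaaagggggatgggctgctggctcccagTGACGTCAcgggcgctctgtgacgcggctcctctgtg
Spag5: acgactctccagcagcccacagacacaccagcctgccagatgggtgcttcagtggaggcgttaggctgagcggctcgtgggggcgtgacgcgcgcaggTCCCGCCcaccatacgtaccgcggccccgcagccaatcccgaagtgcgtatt

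The Spata16 window held CACGTG at 71 and at 45 bases before the start, counted to the first base of the match. Among the matched members, 2 of 51 held CACGTG (Spata16 and Tex10), beside 8.09% of all genes in the RefSeq table. TGACGTCA lay 9 bases before the start in Spag6l, 37 bases before it in Spag4 and 7 bases before it in Spata7, so 3 of 51 members held it, beside 2.03% of all genes. GGCGGGA lay 52 bases before the start of Spag5, read on the other strand in the line above. It was found in 10 of 51 members, beside 12.75% of all genes. TTTGAA was found in 11 of 51 members, beside 20.23% of all genes, and none of the motifs searched overlapped another in the 4 printed stretches. A match is a description of letters, and a link between matches and differences was not tested. Of the members holding TGACGTCA, Spag6l and Spata7 were higher and Spag4 was lower.

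Of the 62 members, 49 were measured, meaning that a probe cleared the scanner's background flag on 2 or more arrays, and 47 of these cleared it on all 4. The measured members divided evenly: 19 were higher after 4-hydroxytamoxifen, 19 were lower and 11 were not called. Counted as higher is Spag17, which passed the filter only through its 4-hydroxytamoxifen arrays. Higher calls made up 38.8% of the measured members, beside 40.5% of all features tested. Lower calls also made up 38.8%, beside 29% of all features. The median difference of the measured members was -0.06 and that of all features was 0.12, with the middle of the members running from -0.43 to 0.66. Calls of at least 2-fold numbered 7 higher members (14.3%, beside 16.3% of all features) and 4 lower members (8.16%, beside 8.05%). In 43 members both arrays of a group lay outside the range of the other group (87.8%, beside 86.5% of all features). These shares lie near those of all features except for the lower calls, 38.8% against 29%. That gap remained with median scaling (46.9% against 37.5%) and the mean of all probes of a gene (38.8% against 29.4%). Quantile normalization gave 38.8% against 31.5%. Under some other settings the gap was small or absent. Without 4-hydroxytamoxifen replicate 1 or 2, 22.4% and 20.4% of the members were lower, against 23.4% and 24.3% of all features. With the arrays scaled on 7 spike-in probes instead, 13 members were higher and 14 lower (28.6%, against 27.0% of all features), and the calls of Tssk4, Spag16, Spata7, Spata1, Tex261, Tex264, Odf2l, Cep41, Spata9, Tex101, Spag1 and Odf4 were lost.

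**Figure D1:**
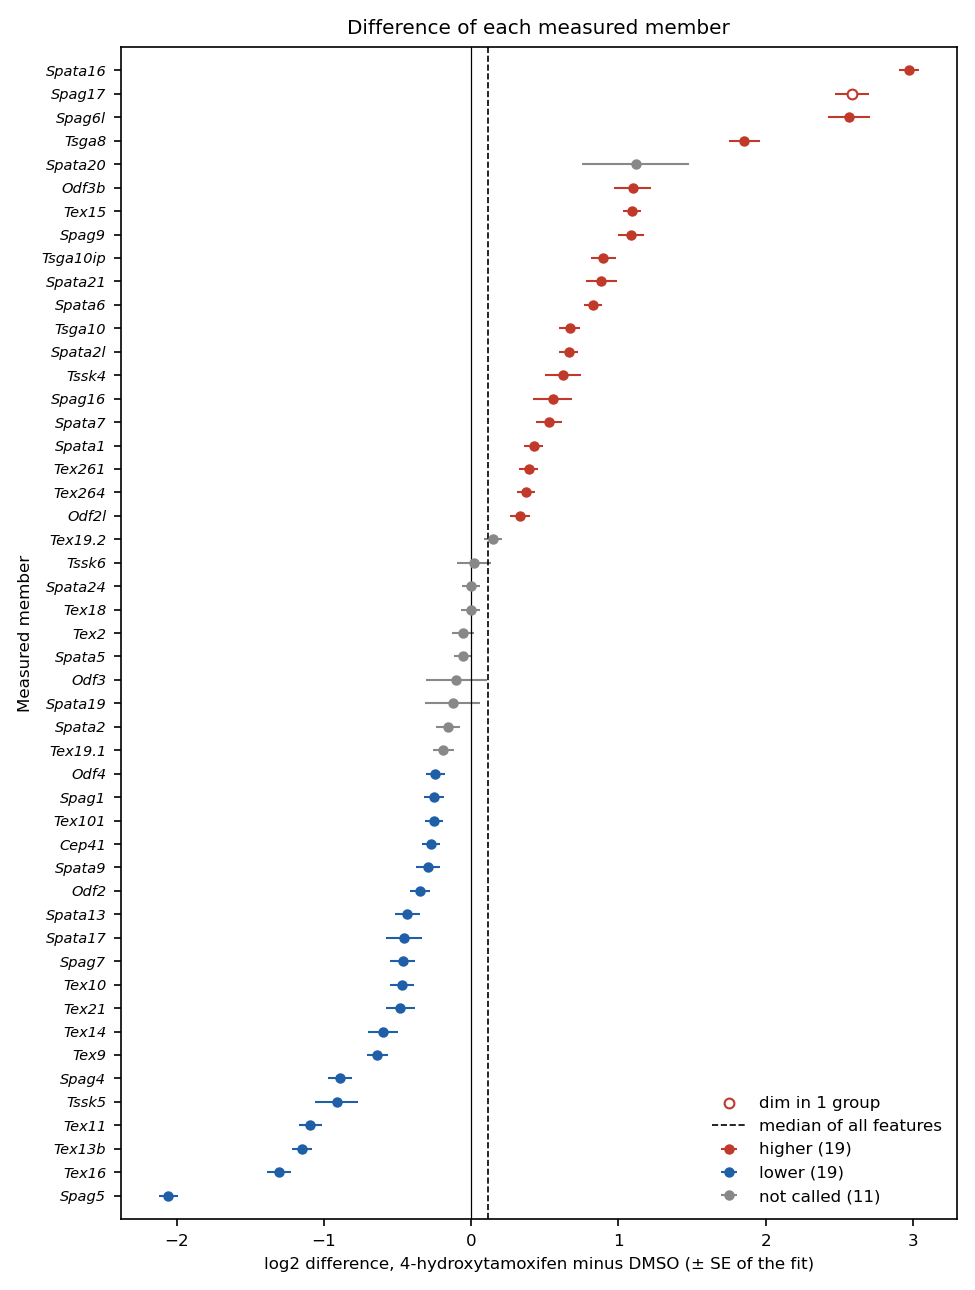
Log2 difference (4-hydroxytamoxifen minus DMSO, x axis) of each of the 49 measured members (y axis, ordered by the difference), with bars for the standard error of the fit on 2 arrays per group; colours mark the call, the open point Spag17, which was dim in DMSO, and the dashed line the median of all features (0.12). The points run from -2.06 for Spag5 to 2.97 for Spata16, with 19 called on each side.

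These are bulk samples, in which fewer cells of a type and less RNA per cell cannot be told apart. Markers of other cells moved with the comparison. Of 25 measured embryonic fibroblast markers, 24 were higher (96.0%, beside 40.5% of all features) and 0 lower (median 0.96). Summed over the list, the signal went from 276700 and 319000 with DMSO to 553300 and 525200 with 4-hydroxytamoxifen, and of that list Fap was not measured. Among 15 germ cell and spermatogonial markers, all above background in DMSO, 12 were lower (80.0%, beside 29% of all features). Only Nanos2 was higher, and the median of this list was -1.40. Its summed signals were 69550 and 67060 against 38270 and 40510. Macrophage and blood markers had 8 of 12 higher (66.7%, beside 40.5% of all features) and 0 lower (median 1.01). Their summed signals were 15850 and 17810 against 37090 and 35410, with Itgam and Hbb-b1 not measured. Sertoli and Leydig markers had 6 of 10 higher and 2 lower, beside 40.5% higher and 29% lower of all features (list median 0.60). Of that list Amh, Gata4, Cyp11a1, Hsd3b1, Insl3 and Lhcgr were not measured. The germ cell marker Ddx4 differed by -0.17 ± 0.08 and was not called. The part of these markers in the members' differences was not tested.

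Axonemal members held some of the largest rises. Spag6l (named Spag6 in the files; a protein of the axoneme's central apparatus, probed on mm9 chromosome 16 between 16753406 and 16753465) had signals of 30.6 and 24.1 with DMSO and of 168 and 154 with 4-hydroxytamoxifen. Both treated arrays lay far above both controls, a rise of 5.92-fold (2.57 ± 0.14, limma adjusted p = 0.000677). Another Spag6l probe, 71.579 kb upstream, was not well above background on any array, so the rise rests on a single probe. Spag17, whose product also sits in the central apparatus, read 11.0 and 10.69 in DMSO, not well above background. After 4-hydroxytamoxifen it read 72.0 and 59.0 (chromosome 3, positions 99858820 to 99858879). Since the DMSO arrays give only a bound, it was at least 3.89-fold higher. Its probe passed the filter only through the 4-hydroxytamoxifen arrays, so its call is not separate support for a rise. A second Spag17 probe, 5.748 kb upstream and also dim in DMSO, was at least 2.62-fold higher. The remaining members of the group moved less. Spag16, another central apparatus protein, is described with its probes further on. Tex9 fell from 2510 and 2393 to 1535 and 1619 (-0.64 ± 0.07, adjusted p = 0.00225). Spag1, which helps to assemble dynein arms, and Spata17, a calmodulin-binding protein, were lower by smaller amounts (-0.25 and -0.46). Over all features, 40.5% were higher and 29% lower. By the brightest probe, 3 of the 6 measured axonemal members were higher and 3 lower, with a median of 0.15. The higher ones include Spag16, whose probes disagree: with the mean of all probes 2 were higher and 4 lower (median -0.35), and median scaling also turned the median (-0.03). Spata4 was not measured. The calls of Spag1 and Spata17 were lost when either 4-hydroxytamoxifen array was left out (adjusted p from 0.063 to 0.125), and that of Spag1 also without either DMSO array (0.0818 and 0.115) and that of Spata17 without DMSO replicate 2 (0.0536).

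Members of the acrosome and other spermatid genes included the largest rise among members above background in both groups. Spata16, a Golgi protein of the forming acrosome whose loss gives round-headed sperm, read 27.1 and 28.9 with DMSO but 216 and 223.5 with 4-hydroxytamoxifen (chromosome 3, positions 26882066 to 26882125). The replicates lay close together and the groups far apart, at 7.85-fold (2.97 ± 0.07, limma adjusted p = 0.000366). Its second probe was dim in DMSO and at least 3.23-fold higher. Tsga8, an X-linked gene of haploid germ cells, read 44.1 and 43.4 against 145 and 173 (chromosome X, positions 80732612 to 80732671). Neither treated array came near the controls, and the rise was 3.62-fold (1.86 ± 0.11, adjusted p = 0.000704). Spata21 read 54.7 and 51.0 against 90.3 and 105, without overlap, a rise of 1.85-fold (0.88 ± 0.10, adjusted p = 0.00274). Spata1 was also higher (0.42). Of the 7 measured members of this group 4 were higher, 2 lower (Tex21 and Spata9) and 1 not called (Spata24), with a median of 0.42. Higher calls made up 57.1% and lower calls 28.6%, beside 40.5% and 29% of all features. Tex21 read 87.6 and 76.4 against 56.4 and 60.8 (-0.48 ± 0.10, adjusted p = 0.0137), and its call was lost without 4-hydroxytamoxifen replicate 1 (0.0727). The call of Spata9 (-0.29) was lost without DMSO replicate 1 (0.128) and without either 4-hydroxytamoxifen array (0.14 and 0.0908). Spata3, Tex22 and Tsga13 were not measured.

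**Figure D2:**
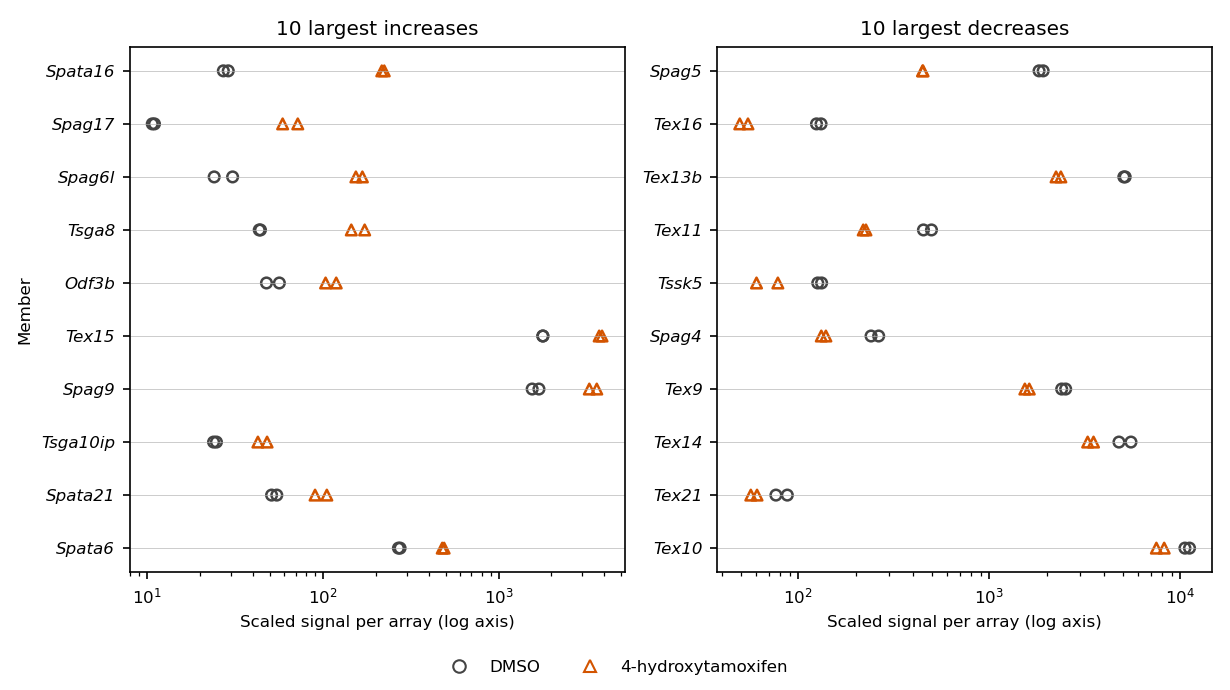
Scaled signal on each of the 4 arrays (x axis, log scale) for the 10 called members with the largest increase and the 10 with the largest decrease (y axis); circles are the 2 DMSO arrays, triangles the 2 4-hydroxytamoxifen arrays. In every row the groups are apart, from Spag5 (1822 and 1914 against 447 and 450) to Tex21 (87.6 and 76.4 against 56.4 and 60.8); the DMSO signals of Spag17 are not well above background.

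Of the 9 measured meiotic and early germ cell members, 5 were lower, 1 was higher and 3 were not called, with a median of -0.26. Lower calls thus made up 55.6%, beside 29% of all features. With each of the 4 arrays left out in turn, the median ran from -0.237 to -0.273. Of the falls, 3 were X-linked genes of early germ cells. Tex16 read 132 and 125 with DMSO and 54.5 and 49.4 with 4-hydroxytamoxifen (chromosome X, positions 109240626 to 109240685), 2.47-fold lower (-1.30 ± 0.08, limma adjusted p = 0.000794). Tex13b (named Tex13 in the files) read 5061 and 5144 against 2236 and 2369 (positions 137343845 to 137343904), 2.22-fold lower (-1.15 ± 0.07, adjusted p = 0.00071). Tex11, which works in meiotic recombination and synapsis, read 498 and 452 against 219 and 226 (its probe spans positions 98079717 to 98099131), 2.13-fold lower (-1.09 ± 0.08, adjusted p = 0.000978). In each of these 3 genes the treated arrays lay near each other and below both controls. The X-linked members did not all move one way, since Tsga8 rose and Tex13a was not measured. Over all 628 features on the X chromosome, 41.2% were higher and 33.8% lower.

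Tex14, a protein of the bridges that join dividing germ cells, fell from 5515 and 4773 to 3512 and 3273 (-0.60 ± 0.10, limma adjusted p = 0.00759). Tex101, a surface glycoprotein of germ cells, was lower by little (-0.26 ± 0.06), a call lost when any of the 4 arrays was left out (adjusted p from 0.0713 to 0.0961). Tex15 went the other way. This factor of meiotic break repair and transposon silencing read 1789 and 1784 in DMSO and 3737 and 3879 after 4-hydroxytamoxifen (chromosome 8, positions 34692726 to 34692785). The controls were nearly equal, and the rise was 2.13-fold (1.09 ± 0.06, adjusted p = 0.000697). Tex19.1, which restrains retrotransposons, read 50420 and 54430 against 46170 and 45790. The treated arrays were lower without overlap, but the difference of -0.19 missed the threshold (adjusted p = 0.0751; 95% interval -0.38 to 0.01). Its neighbour Tex19.2 (0.15, interval -0.03 to 0.32) and Tex18 (-0.004, interval -0.18 to 0.17) were not called.

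Spindle and centrosome members included the largest decrease. Spag5, also called astrin, which holds microtubules to kinetochores in mitosis, read 1822 and 1914 with DMSO but 447 and 450 with 4-hydroxytamoxifen (chromosome 11, positions 78135655 to 78135714). Replicates lay close together, and the fall was 4.16-fold (-2.06 ± 0.06, limma adjusted p = 0.000383). Its second probe read 78.7 and 76.5 against 15.6 and 14.5, dim after 4-hydroxytamoxifen, and was at least 4.39-fold lower. Tsga10, a protein of the centrosome and sperm tail, read 180 and 196 against 296 and 302, a rise of 1.59-fold (0.67 ± 0.07, adjusted p = 0.00232). Odf2, of both the centriole and the outer dense fibres, fell from 5345 and 5517 to 4387 and 4154 (-0.35 ± 0.07, adjusted p = 0.0116), and the call was lost without 4-hydroxytamoxifen replicate 2 (0.06). Odf2l was higher by 0.33, and Cep41 (named Tsga14 in the files), a centrosomal protein of cilia, was lower by 0.27 on the log2 scale. The calls of these last 2 genes were lost without either 4-hydroxytamoxifen array and without DMSO replicate 1, and that of Cep41 also without DMSO replicate 2 (adjusted p from 0.0611 to 0.0772). All 5 members of the group were measured and called, 2 higher and 3 lower (median -0.27). Of all features, 40.5% were higher and 29% lower.

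Among the members of the sperm tail and its junction with the head, 2 of 6 measured were higher, 2 lower and 2 not called (median -0.11). Each direction made up 33.3%, beside 40.5% higher and 29% lower of all features. Odf3b read 47.8 and 56.5 in DMSO and 104 and 119 after 4-hydroxytamoxifen (1.10 ± 0.12, limma adjusted p = 0.00256). Spata6, needed to form the connecting piece between head and tail, read 275 and 269 against 490 and 478, a rise of 1.78-fold (0.83 ± 0.06, adjusted p = 0.00103). The groups of both genes were well apart. Spag4, a SUN-domain protein of the nuclear envelope that anchors the tail, moved the opposite way, from 264 and 240.5 to 132 and 139.5 (-0.89 ± 0.08, adjusted p = 0.00146). Odf4 was lower by 0.24 on the log2 scale, a call lost when any of the 4 arrays was left out (adjusted p from 0.0717 to 0.115). Odf3 and Spata19 had overlapping groups and were not called, and Odf1 and Odf3l1, of the dense fibres and a related protein, were not measured.

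The TSSK kinases, which phosphorylate proteins in spermatids, were in part below the background, with 3 of 6 measured. Tssk5 read 132.5 and 126.5 against 60.5 and 78.2 (-0.91 ± 0.15, limma adjusted p = 0.00639), lower in both treated arrays. Tssk4 read 38.6 and 47.0 against 68.7 and 62.7 (0.62 ± 0.12, adjusted p = 0.0131), higher in both, but its call was lost without 4-hydroxytamoxifen replicate 1 (0.0715). Tssk6 read 100 and 96.6 against 90.8 and 110 and was not called (0.02, 95% interval -0.30 to 0.34). Tssk1, Tssk2 and Tssk3 were not measured, and Tssk2 was bright on a single array (63.2 on 4-hydroxytamoxifen replicate 1 and 6.07 on replicate 2).

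Members with roles in many cell types made up the largest group, with 12 of 14 measured. By the brightest probe 5 were higher, 3 lower and 4 not called (median 0.16, and -0.02 with median scaling). These counts stand beside 40.5% higher and 29% lower of all features. The 5 higher members include Spag9, whose probes disagree and are described further on. Tex264, a receptor that sends endoplasmic reticulum to autophagy, read 8458 and 8366 against 10800 and 11000 (0.37 ± 0.06, limma adjusted p = 0.00663). Tex261, a membrane protein of export from the endoplasmic reticulum, was also higher (0.39), as were Spata7, a ciliary protein of photoreceptors (0.53), and Spata2l (0.66). Tex10, a nuclear protein of ribosome formation, fell from 11170 and 10570 to 7493 and 8231 (-0.47 ± 0.08, adjusted p = 0.00821). Spag7 and Spata13, an exchange factor for small GTPases, were lower (-0.47 and -0.43). The call of Spag7 was lost without 4-hydroxytamoxifen replicate 2 (0.051), and that of Spata13 without either 4-hydroxytamoxifen array (0.0611 and 0.0624). Spata20 read 19.18 and 37.8 against 52.7 and 64.8, higher in both treated arrays. Its difference of 1.12 ± 0.36 missed the threshold (adjusted p = 0.0513), and its DMSO arrays lay far apart. It was called without DMSO replicate 1 (0.63, adjusted p = 0.0284) or DMSO replicate 2 (1.61, 0.00216). A second Spata20 probe, dim in DMSO, was at least 1.90-fold higher. It was kept only through its 4-hydroxytamoxifen arrays, so it is not separate support for a rise. Outside the role groups, Tsga10ip, an interaction partner of Tsga10 by name, read 23.9 and 24.8 against 42.7 and 48.1 (0.90 ± 0.09, adjusted p = 0.0017).

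**Figure D3:**
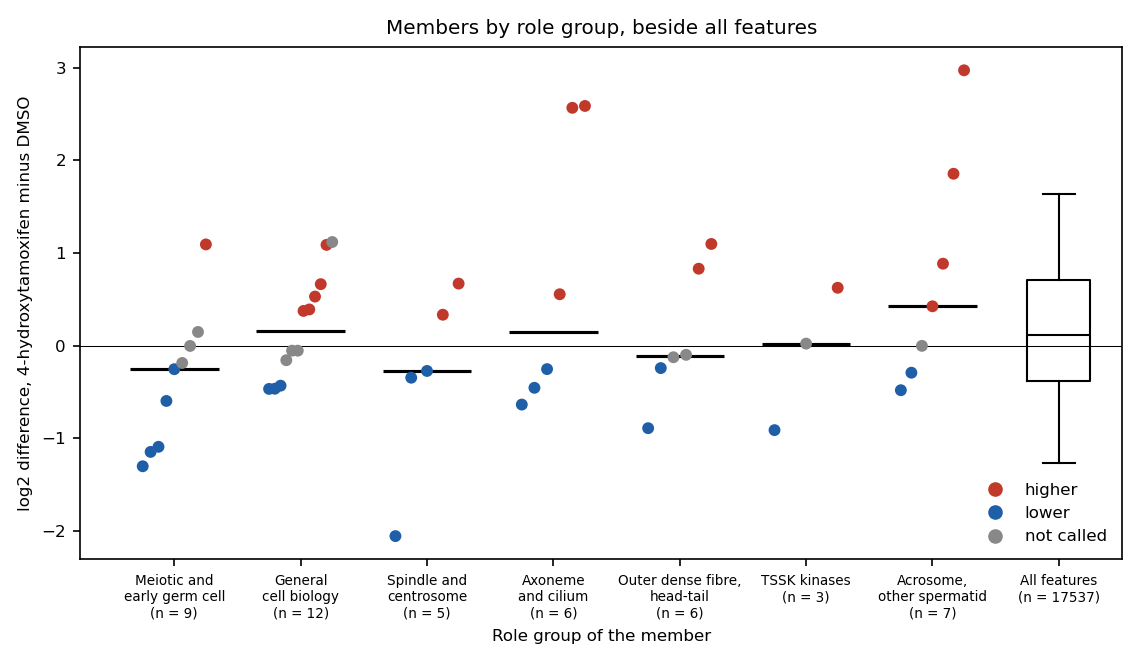
Log2 difference (4-hydroxytamoxifen minus DMSO, y axis) of each measured member by role group (x axis), with a bar at the group's median and colours for the call; the box at the right spans the quartiles of all 17537 features, with whiskers from the 5th to the 95th percentile. Meiotic members lie mostly under 0 (median -0.26), while the acrosomal and other spermatid members have the highest median of the groups drawn (0.42).

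Several members rest on probes that did not move alike. Of 18 members with at least 2 kept probes, 10 had every probe called in 1 direction and 6 had called and uncalled probes. The other 2 had probes called in opposite directions (11.1%, beside 8.36% of 6319 features with at least 2 kept probes). Among those 6319 features, 2697 had every probe called in 1 direction and 2319 had called and uncalled probes. These counts, and the errors and p-values given below for single probes of a gene, come from a fit of every kept probe on its own, unless named as the fit by gene. The first 30 bases of the 60-base probes are printed for 3 genes whose probes differed in direction or size, to show which stretch each value reads. No bases are in capitals, because none is singled out. The Spag16 probes lie at chromosome 1, positions 69972449 to 69972508 and 70771524 to 70771583 of mm9, the Spag9 probes at chromosome 11, positions 93975528 to 93975587 and 93987187 to 93987246, and the Tsga10 probes at chromosome 1, positions 37889767 to 37889826 and 37817680 to 37817739. Whether each lies in a coding exon or an untranslated part was not analysed here.
Spag16 upstream probe: taaaactgaagcctttggttttacttccgg
Spag16 downstream probe: tagcacaccctgatgcaaagggcattccct
Spag9 upstream probe: gtaatccgtgtatatggtgatgagaacagt
Spag9 downstream probe: gttttcattctagaaatccagaactttact
Tsga10 upstream probe: cacacaatcaaggttctagcttattttgca
Tsga10 downstream probe: gcgaggaaactgatactaaacctggttaat

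The downstream Spag16 probe, which had the higher mean and stands for the gene, read 57.2 and 47.7 in DMSO and 71.2 and 82.5 after 4-hydroxytamoxifen (0.55 ± 0.13, limma adjusted p = 0.0227). The upstream probe, 799.075 kb away along the gene, read 132 and 131 against 22.1 and 25.6, which is a fall by 2.47 on the log2 scale (adjusted p = 0.000559). Groups did not overlap on either probe, and the directions were opposite, so no single direction is given for Spag16. In the fit by gene, the call of the downstream probe was lost without 4-hydroxytamoxifen replicate 2 (0.45, adjusted p = 0.096). Spag9, a scaffold of JNK signalling and motor transport, also had probes called in opposite directions. Its most downstream probe read 1553 and 1697 against 3621 and 3284 (1.09 ± 0.09, adjusted p = 0.00143). The probe printed as upstream read 174 and 166 against 121 and 133 (-0.42, adjusted p = 0.0129), and a further probe overlapping it gave the same sign (-0.42). Of its 5 kept probes, the remaining 2 lie further upstream and were not called (0.16 and -0.84, adjusted p = 0.481 and 0.0976). Whether the sign follows position along the gene was not tested. In the fit by gene with all probes of a gene averaged, Spag16 differed by -0.96 and Spag9 by -0.09 (adjusted p = 0.00261 and 0.525).

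Both Tsga10 probes rose, by unlike amounts. The upstream one is the probe described above (0.67), and the downstream one read 16.8 and 13.5, dim in DMSO, against 125 and 123, which is at least 7.16-fold higher. For Odf2, the brightest probe fell (-0.35), as did one dim in part (-0.52), while 2 probes further downstream were not called (0.19 and -0.002). Spata2, which links a deubiquitinase to TNF signalling, was not called on its brighter probe (-0.16 ± 0.09) but was higher on the other (0.34, limma adjusted p = 0.0299). In contrast, every kept probe agreed in call and direction for Spata16, Spag17, Spag4, Spag5, Spata6, Spata7, Tex14, Tex261, Tex264 and Tsga10. However, both Spag17 probes and a probe each of Spata16, Tsga10 and Spag5 were kept only through the group where they were bright. The agreement of such probes in direction is not support. Probes that were not kept do not enter this comparison.

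**Figure D4:**
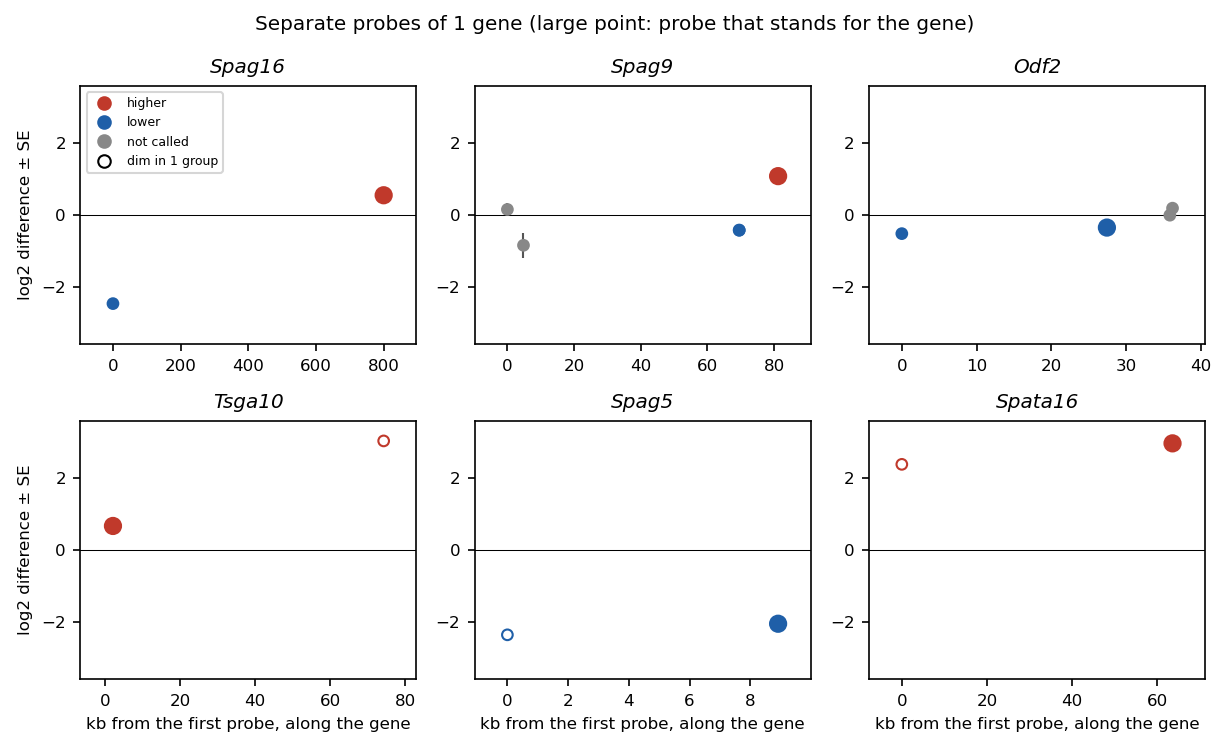
Log2 difference with its standard error (y axis) of each kept probe of 6 members against its distance in kb from the gene's first probe, along the gene (x axis); large points stand for the gene, open points were dim in 1 group and give only a bound, and colours mark the call. Spag16 and Spag9 have called probes on both sides of 0, while the probes of Tsga10, Spag5 and Spata16 lie on 1 side.

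The 13 members that were not measured include 9 of the tail, axoneme, kinase and spermatid groups: Odf1, Odf3l1, Spata3, Spata4, Tsga13, Tssk1, Tssk2, Tssk3 and Tex22. The others are Tex13a of the early germ cell group, Spag11a (a defensin-like gene of the epididymis), Spata18 and Spata5l1. Of these, 9 were above background on no array and 4 on 1 array. Spag11a and Tex22 were so on a DMSO array, and Spata4 and Tssk2 on a 4-hydroxytamoxifen array. The signal of these genes was at most 63.2 on any array, the value of Tssk2 given above.

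Other spermatid and sperm genes give the setting for these members. Of 55 on the list, 42 were measured, and 17 were higher (40.5%, beside 40.5% of all features), 12 lower (28.6%, beside 29%) and 13 not called. Its median was 0.10, and -0.06, -0.08 and -0.05 with quantile, median and spike-in scaling. Rises included parts of the flagellum: Cfap44 was dim in DMSO and at least 13.8-fold higher, and Cfap57 rose from 199 and 200 to 2812 and 2972 (3.86 ± 0.06, limma adjusted p = 0.000366). Adam2, a sperm surface protein, was dim in DMSO and at least 2.99-fold higher. Among those that fell were Tubb4b and Tuba3a, tubulins (-1.88 and -1.19), Izumo1, the sperm protein of egg fusion (at least 2.50-fold lower), and Spaca1, of the acrosomal membrane (-1.08). The protamine genes Prm1 (-0.18) and Prm2 (-0.08), which pack sperm DNA, were not called. As among the members, rises and falls stood side by side.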

How the data were processed

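Total RNA of 4 samples was measured on 1-colour Agilent arrays of 60-base probes. The deposited scanner files hold intensity values per spot on a linear scale: per the file headers, background was removed in Agilent Feature Extraction 10.7.3.1, while the submitters' processing notes name version 9.5. A deposited value table of log2 values matched the log2 of the processed signal up to a constant for each array (within 0.01 for 99.66% to 99.68% of probes) and served as an alternative. The genome build of the coordinates is that of the files, mm9.

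Each array held 41174 probes apart from control spots. On each array 60 to 71 outlier spots were left out, and 0 spots were saturated. Precision is limited by the number of arrays (2 per group), which shared 1 slide and 1 scan. Values are log2 processed signals minus the array's 75th percentile. The probe with the highest mean among the 26393 well above background on at least 2 arrays stood for its gene. Names were updated through a RefSeq table (33636 probes, 105 of the 106 probes of the members). The comparison used lmFit and eBayes of limma 3.58.1 (R 4.3.3), checked on simulated data. An exact permutation test of 2 against 2 cannot give a two-sided p under 0.333. Nothing in the labels says that replicates are separate cultures, and p-values then reflect the spread between these samples only, which may be technical. For a probe well above background on neither array of a group, the text gives a bound. It sets the mean of the bright group against a floor for the dim group: on each array, the probe's own signal or the lowest signal that cleared background, whichever was larger, averaged on the normalized log2 scale.

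Members, role groups, lists and motifs were chosen with earlier results of these data known. All members could be named. The 10 called members with the largest difference in each direction and no overlap between groups got full values, other members a summary by role group with up to 4 named, and the spermatid list up to 4 per direction; Nanos2, Prm1, Prm2 and probes that disagree were named beyond this rule. A gene of the spermatid list that the rule names is not reported here. Replicate numbers were not used for pairing, since the labels do not say that equal numbers share a culture or day. The deviations of same-numbered arrays correlated at -0.0448. Figures were drawn with matplotlib.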

Additional observations from a re-analysis of the deposited data

How the results depend on the processing

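Alternatives covered quantile, median and spike-in scaling, normexp background correction (offset 50), the deposited value table, no filter on dim probes, a filter on all 4 arrays, the mean of all probes of a gene, a replicate block and each array left out in turn. A fit of each probe on its own, added after the data were seen, called 19 members higher and 19 lower. A slide or scan block was not run, since all arrays shared both. Higher members numbered 13 (spike-in scaling) to 20, and 17 to 20 with an array left out. Lower members numbered 12 with no filter, 23 with median scaling and 10 to 14 with an array left out: 14 without either DMSO replicate, 11 without 4-hydroxytamoxifen replicate 1 and 10 without replicate 2. The replicate block gave 20 higher and 14 lower. The median of the measured members was -0.23 with median scaling, -0.20 with spike-in scaling, 0.022 with no filter and -0.046 to 0.004 with an array left out. The median of all features moved from 0.12 to -0.06 and -0.03 with these scalings, and higher features from 58.3% of calls to 46.7% and 50.5%. Among called members, the sign turned only for Spag16 (-0.96) and Spag9 (-0.087) with the mean of all probes, which averages probes of opposite sign. Under every one of these settings in which they were tested, 11 of the higher and 9 of the lower members kept call and direction. Median scaling ended the calls of Spag16, Tex264 and Odf2l and gave calls to Spata2, Spata5, Tex2 and Tex19.1; the cause was not tested. Over single members and alternatives, 555 values stayed on their side of the threshold, 66 lost the call and 12 gained one. Of the 555, 17 values of 8 members that were not called changed sign, such as Odf3 (0.108 without 4-hydroxytamoxifen replicate 1) and Spata2 (0.09 with the mean of all probes). Signal over background limits the 13 members that were not measured and the bounds.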
